A study of Mus musculus with 9 samples.

Results

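The comparison described here sets 1 mouse embryo library that lacks the miR-17 and miR-18 families of the miR-17~92 cluster (ΔmiR-17,18) against 1 wild-type library. The members were all rows of mature miRNAs in the deposited table, 986 after near-identical rows of the same miRNA had been merged, measured in 2 of the 9 libraries of the series. The libraries of the other 6 mutant genotypes served as the measure of spread, and a library of undetermined reads was not used. Of the 986 rows, 12 are arms of the cluster, 1 is a second row of miR-92a-3p, and 973 lie outside it.

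Small RNA was sequenced from mouse embryos at embryonic day 9.5, from which heart and tail bud had been cut away before the rest went into Trizol. Each genotype had 1 library, and all were labelled female. Wild type carried the whole cluster, and the mutants were deletions of miR-17 (ΔmiR-17), of miR-18 (ΔmiR-18), of miR-19 (ΔmiR-19), of miR-92 (ΔmiR-92), of miR-17 and miR-18 together, of miR-17, miR-18 and miR-92 together (ΔmiR-17,18,92), and of the entire cluster (full deletion). No agent was given and no allele other than those of the cluster is named in the labels. The sources used here give neither the number of embryos per library nor the zygosity. With 1 library a side there is no replicate error: every ratio compares 2 libraries, its interval covers counting error alone, and no p-value exists for it.

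A miRNA cluster is transcribed as 1 long primary RNA, from which Drosha cuts hairpins and Dicer cuts a duplex of 2 arms, named 5p and 3p. One arm is usually loaded into an Argonaute protein as the guide, and its bases 2 to 8, the seed, pair with target mRNAs, so miRNAs with the same seed form a family. The miR-17~92 cluster is known for its part in growth and survival of embryonic cells, and mice have paralog clusters, miR-106a~miR-363 on the X chromosome and miR-106b~miR-25 on chromosome 5, that carry some of the same seeds.

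The 6 hairpins of the cluster lie on the plus strand of chromosome 14 between 115043671 (Mir17) and 115044506 (Mir92-1) in RefSeq's annotation of GRCm38.p6, which is not the mm9 build named in the submitters' processing notes. The arms are shown first because the deletion removed 3 of these hairpins and left the other 3. Sequences are from RefSeq (GRCm38.p6), 5′ to 3′, with the seed in capitals. The arms that ΔmiR-17,18 lacks are these:
miR-17-5p: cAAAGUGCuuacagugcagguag
miR-17-3p: aCUGCAGUgagggcacuuguag
miR-20a-5p: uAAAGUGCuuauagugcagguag
miR-20a-3p: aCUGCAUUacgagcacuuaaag
miR-18a-5p: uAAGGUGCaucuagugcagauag
miR-18a-3p: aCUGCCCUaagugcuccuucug
The arms that it keeps follow, and the remaining one, miR-19a-5p, is named only:
miR-19a-3p: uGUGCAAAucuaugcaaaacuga
miR-19b-3p: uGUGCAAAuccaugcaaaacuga
miR-19b-1-5p: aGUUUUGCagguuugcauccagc
miR-92a-3p: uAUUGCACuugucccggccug
miR-92a-1-5p: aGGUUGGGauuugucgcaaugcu

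The paralogs of the deleted arms are shown because their seeds are the same. miR-106a-5p differs from miR-17-5p at 1 base, and miR-20b-5p differs from miR-20a-5p at 2 bases. miR-106b-5p differs from miR-17-5p at 3 of the 21 bases it has, and miR-93-5p at 4. miR-18b-5p differs from miR-18a-5p at 2 bases. The sources used here do not give the handling of reads that fit several places, so values of such near-copies are uncertain.
miR-106a-5p: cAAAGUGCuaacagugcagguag
miR-20b-5p: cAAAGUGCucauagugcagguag
miR-106b-5p: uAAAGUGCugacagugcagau
miR-93-5p: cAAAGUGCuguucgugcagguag
miR-18b-5p: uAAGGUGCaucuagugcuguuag

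Depth and the check of the labels concern all libraries. Recovered reads numbered 7070844 in wild type and 9266977 in ΔmiR-17,18, and lay between 6564471 and 18481380 over the 8 genotype libraries. Levels are given as nRPM, the deposited normalised value rescaled so that the 8 libraries had an average total as in RPM values, and 1 read was worth between 0.0624 and 0.157 nRPM. Between 34.7% and 45.2% of the reads fell on the 10 most abundant miRNAs.

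All 6 arms taken as deleted were at or below 1.04% of wild type in ΔmiR-17,18. The label names miR-17 and miR-18 only, and the arms of miR-20a, whose guide has the seed of miR-17-5p, were counted with them. miR-17-5p measured 180.0 nRPM against 17330.5 in wild type, that is 1572 reads and 1.04% of wild type (95% counting interval 0.988% to 1.09%). In ΔmiR-17, ΔmiR-17,18,92 and the full deletion it stood at 0.0586%, 0.0512% and 0.0581% of wild type. The double deletion thus held a higher remainder than the other libraries without this arm. The remainder of miR-20a-5p was 0.601% of wild type (1632 reads), against 0.0682%, 0.0279% and 0.0676% in the same 3 libraries. That of miR-18a-5p was 0.719% (634 reads), against 0.0445% in ΔmiR-18, 0.0425% for ΔmiR-17,18,92 and 0.171% without the cluster. For the partner arms the remainder was 0.123% for miR-17-3p (21 reads) and 0.766% for miR-18a-3p (17 reads). miR-20a-3p had 0 reads, where 3 reads would have been 0.151% of the wild-type level. No cause of the higher remainder was tested.

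**Figure D1:**
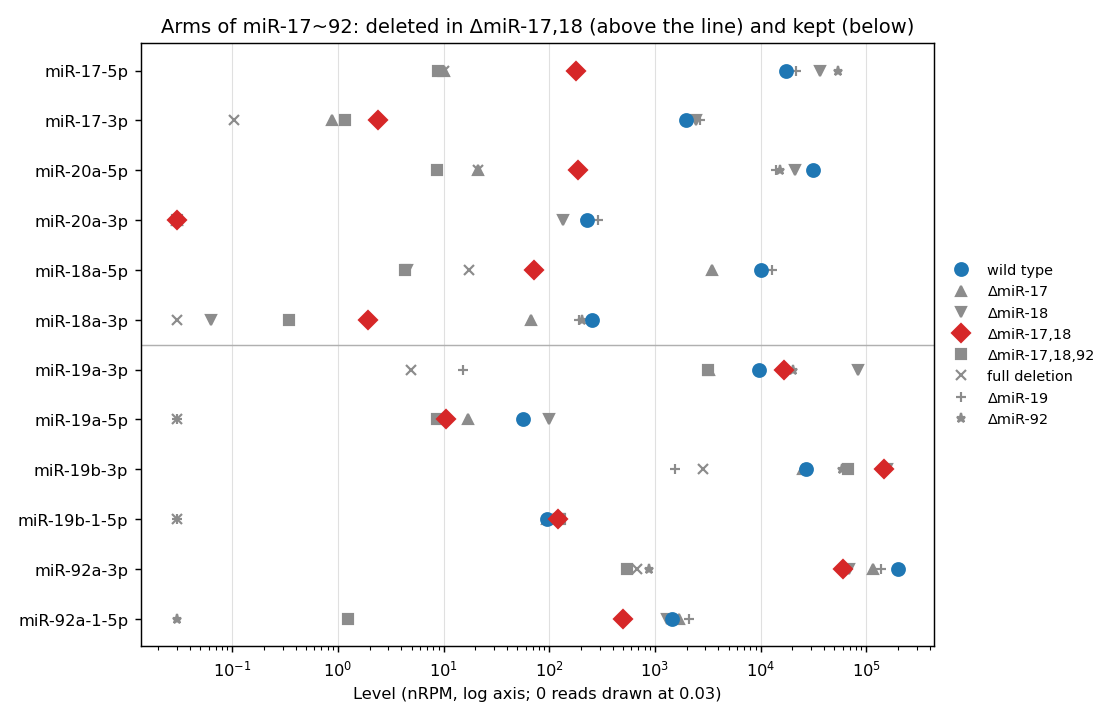
Level of the 12 arms of miR-17~92 (nRPM, log axis) in the 8 genotype libraries, 1 point a library, with arms deleted in ΔmiR-17,18 above the line, and 0 reads drawn at 0.03. The red points of ΔmiR-17,18 lie far left of wild type for the deleted arms, and to the right of wild type for miR-19a-3p and miR-19b-3p.

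The arms that the double deletion keeps did not stay at wild-type level. miR-19b-3p was 5.50-fold higher, while miR-92a-3p, miR-92a-1-5p and miR-19a-5p were 2-fold or more lower, so that 4 of the 6 kept arms lay at least 2-fold from wild type. The kept arms summed to 94.99% of their wild-type total, with the miR-19 guides higher and miR-92a-3p lower by similar amounts of nRPM. miR-92a-3p is the most abundant arm of the cluster in wild type.

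miR-19b-3p measured 147990.0 nRPM in the double deletion against 26894 in wild type, with 25168 and 155570.0 for the miR-17 and the miR-18 deletion, 67216 for ΔmiR-17,18,92, 2852 without the cluster, 1541 for ΔmiR-19 and 59391 for ΔmiR-92. ΔmiR-18 and ΔmiR-17,18 were the highest libraries and close to each other, ΔmiR-17 lay at the wild-type level, and the log2 ratio of the double deletion (2.46) was close to that of the summed single deletions (2.44). This arm has a second hairpin, in the paralog cluster on the X chromosome, and reads of the 2 hairpins cannot be told apart. miR-19a-3p measured 16804 nRPM in the double deletion against 9621 in wild type, with 3221 and 83046 for the miR-17 and the miR-18 deletion, 3157 for ΔmiR-17,18,92, 4.93 without the cluster, 15.1 for ΔmiR-19 and 20142 for ΔmiR-92. Its log2 ratio was 0.80 in the double deletion, against −1.58 and 3.11 for the miR-17 and the miR-18 deletion, a departure of −0.73 from their sum of 1.53. The 2 miR-19 guides, which share their seed, were thus unlike in how far ΔmiR-17,18 lay from ΔmiR-18. Their summed seed family was 36515 nRPM in wild type and 164794 nRPM in ΔmiR-17,18, a 4.51-fold ratio, and lay −0.17 (log2) from the sum of the single deletions.

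miR-92a-3p measured 60314 nRPM in the double deletion against 199542 in wild type, with 116098 and 68470.0 for the miR-17 and the miR-18 deletion, 546 for ΔmiR-17,18,92, 682 without the cluster, 139079 for ΔmiR-19 and 872 for ΔmiR-92. It was lower than wild type in both single deletions and in the double deletion, at log2 ratios of −0.78 (ΔmiR-17), −1.54 (ΔmiR-18) and −1.73 (ΔmiR-17,18), the last being 0.60 above their sum. ΔmiR-18 and ΔmiR-17,18 were again close to each other. The table holds a second, lower row of miR-92a-3p, and the sources used here do not assign the rows to hairpins. The lower row was at 10970 nRPM in the double deletion against 22952 in wild type. It kept 8491 nRPM in ΔmiR-17,18,92, 9800 without the cluster and 14308 in ΔmiR-92. The higher row was thus nearly lost in the libraries that lack miR-92 of the cluster. The lower row was below wild type in them, as in every other mutant, but was not lost.

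Of the 3 partner arms, that of miR-92a-1 was lower by about as much as its guide, while those of miR-19a and miR-19b-1 did not share the ratio of theirs. miR-92a-1-5p measured 502 nRPM in the double deletion against 1442 in wild type, with 1679 and 1302 for the miR-17 and the miR-18 deletion, 1.25 for ΔmiR-17,18,92, 1.26 without the cluster, 2097 for ΔmiR-19 and 0 for ΔmiR-92, and its log2 ratio of −1.52 lay −1.59 from a sum of 0.07. Neither single deletion lowered it by 2-fold. miR-19a-5p measured 10.6 nRPM in the double deletion against 56.4 in wild type, with 16.97 and 99.7 for the miR-17 and the miR-18 deletion, 8.66 for ΔmiR-17,18,92, 0 without the cluster, 0 for ΔmiR-19 and 57.8 for ΔmiR-92, with a log2 ratio of −2.30 and a departure of −1.44. Its guide was higher than wild type in the same library, so that reads of miR-19a-3p per read of miR-19a-5p numbered 1578 in the double deletion, 833 for the miR-18 deletion, 190 for the miR-17 deletion and 171 for wild type. miR-19b-1-5p stayed within 2-fold of wild type in all mutants that keep its hairpin, at 95.4 nRPM in wild type and 120.0 in ΔmiR-17,18. Its guide per partner was 282 in wild type, 1233 in the double deletion and 1251 for the miR-18 deletion. For miR-92a-1 the same ratio was 138 in wild type and 120 in ΔmiR-17,18.

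The summed miR-17 seed family was close to the wild-type level in the double deletion although 2 of its 6 members were deleted. It came to 107165 nRPM in wild type and 104208 nRPM in ΔmiR-17,18, that is 97.2% (95% counting interval 96.9% to 97.5%). Other libraries without miR-17-5p and miR-20a-5p stood at 68560 nRPM (ΔmiR-17), 71831 (ΔmiR-17,18,92) and 133650 (full deletion), and those that keep them at 119505 (ΔmiR-18), 94020 (ΔmiR-19) and 138987 (ΔmiR-92). The double deletion lay within this spread. Other scalings gave between 0.92 and 1.01 times the wild-type level, so its side of wild type depends on the scaling.

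The paralogs made up 54.8% of the family in wild type and 99.6% in ΔmiR-17,18, as the plot of the family by library shows. Their sum was 1.77-fold higher, at 58762 nRPM in wild type and 103841 nRPM in the double deletion, within the 58663 to 133619 nRPM of the other 6 mutants. miR-106b-5p, from an intron of Mcm7, measured 48008 nRPM in the double deletion against 16824 in wild type, with 16758 and 28068 for the miR-17 and the miR-18 deletion, 22567 for ΔmiR-17,18,92, 34299.8 without the cluster, 27939 for ΔmiR-19 and 32116 for ΔmiR-92. ΔmiR-17,18 was the highest of the 8 libraries for it, 2.85-fold (95% counting interval 2.83 to 2.87) above wild type, and its share of the family was 46.1% against 15.7% in wild type. The departure from the sum of the single deletions was 0.78. miR-93-5p, from the same intron, was 1.19-fold of wild type and ranged from 18904 nRPM in ΔmiR-19 to 76210.5 in the full deletion. These neighbours of 1 transcript therefore did not rank the libraries alike.

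Of the X-linked members, miR-106a-5p measured 7577 nRPM in the double deletion against 2612 in wild type, with 3288 and 4391 for the miR-17 and the miR-18 deletion, 5408 for ΔmiR-17,18,92, 9420.2 without the cluster, 3620.3 for ΔmiR-19 and 5999.8 for ΔmiR-92. Wild type was the lowest of the 8 libraries, and ΔmiR-17,18, at 2.90-fold (95% counting interval 2.85 to 2.95), was second to the full deletion. miR-20b-5p was 1.41-fold of wild type (5979 nRPM and 8433 nRPM).

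**Figure D2:**
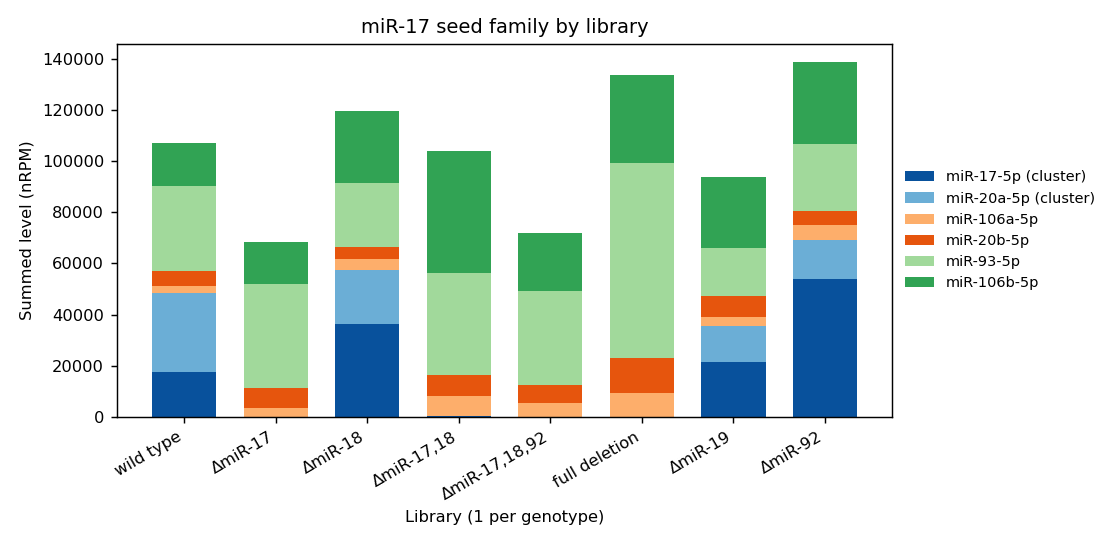
Summed level of the miR-17 seed family (nRPM, stacked by member) in the 8 genotype libraries. Cluster members (blue) are all but absent from ΔmiR-17,18, whose total of 104208 nRPM is close to the 107165 nRPM of wild type, with miR-106b-5p (dark green) at 46.1% of it.

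The miR-18 seed family was far below wild type. It summed to 16968 nRPM in wild type and 2090 nRPM in ΔmiR-17,18, that is 12.3%, and its log2 ratio of −3.02 lay −0.03 from the sum of the single deletions. Nearly all that was left was miR-18b-5p, which measured 2018 nRPM in the double deletion against 6869 in wild type, with 9483 and 2788 for the miR-17 and the miR-18 deletion, 4414 for ΔmiR-17,18,92, 11429 without the cluster, 4754 for ΔmiR-19 and 1096 for ΔmiR-92. ΔmiR-92, ΔmiR-17,18 and ΔmiR-18 were the 3 lowest libraries, and ΔmiR-17,18 was at 0.29-fold (95% counting interval 0.29 to 0.30) of wild type. The miR-92 seed family, which holds miR-25-3p, miR-363-3p, miR-32-5p, miR-92b-3p and, by its seed, miR-367-3p, summed to 276167 nRPM in wild type and 114086 nRPM in ΔmiR-17,18, that is 41.3%, with a departure of 0.24.

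Summed over the arms with rows of their own, the paralog clusters stayed near wild type. The sum for miR-106a~miR-363 leaves out miR-19b-3p and miR-92a-3p, guides that it shares with the cluster under study. Their reads could not be assigned to a hairpin. Their rows were at 5.50-fold and 0.30-fold of wild type in ΔmiR-17,18, and the lower row of miR-92a-3p was at 0.48-fold. How the X-linked cluster changed with these guides included is therefore not known. The arms of miR-106a~miR-363 summed to 1.10-fold of wild type (21429 to 23481 nRPM, with 17475 to 42001 nRPM in the other 6 mutants), and those of miR-106b~miR-25 to 1.28-fold (95176 to 121794 nRPM, others 84186 to 137218 nRPM). Both lay inside the spread of the other mutants. Of 6 summed arms of the first cluster with an average of 100 nRPM or more, 1 was 2-fold or more higher and 1 lower. Of 5 such arms of the second, 1 was higher. Over all 319 miRNAs outside the cluster, 11.6% were higher and 12.5% lower by 2-fold or more, so 11 arms are too few to set apart from that share. miR-25-3p was at 0.74-fold, miR-363-3p at 0.86-fold and miR-363-5p at 1.15-fold of wild type. miR-106b-3p, at 0.95-fold, and miR-93-3p, at 0.71-fold, did not share the ratios of their partner arms. The low arms miR-106a-3p, miR-18b-3p, miR-20b-3p, miR-19b-2-5p and miR-25-5p lay between 5.84 and 82.8 nRPM in ΔmiR-17,18, and miR-92a-2-5p at 121 nRPM against 181 in wild type.

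Outside the cluster, 319 of the 973 rows averaged 100 nRPM or more over the 8 libraries, and those are counted below. A row can pass this filter through 1 high library, so the counts describe these rows alone. In ΔmiR-17,18, 77 of the 319 (24.1%) lay 2-fold or more from wild type, 37 higher (11.6%) and 40 lower (12.5%). For the miR-17 and the miR-18 deletion the same count was 22 and 47, and it was 49 for ΔmiR-17,18,92, 53 without the cluster, 31 for ΔmiR-19 and 45 for ΔmiR-92. The pair of ΔmiR-17,18 and wild type was the farthest apart, by this count, of the 28 pairs of libraries.

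Each of the 2 libraries was also set against the other 6 mutants. Of the 37 miRNAs that were higher, ΔmiR-17,18 lay above all other 6 mutants in 22, and wild type lay below all 6 in 21, with both true of 14 and neither of 8. Of the 40 that were lower, ΔmiR-17,18 lay below all 6 in 23, and wild type above all 6 in 15, with both true of 9 and neither of 11. Over all 319 miRNAs, ΔmiR-17,18 lay above the other 6 mutants in 14.4% and below them in 18.5%. Wild type was the lowest of the 8 libraries in 13.8% and the highest in 9.7%. The rows were picked on the ratio of these 2 libraries, which favours both lying at an end. The counts therefore do not show on which side the distance lies. Against the mean of wild type, ΔmiR-19 and ΔmiR-92, the 3 libraries that keep both families, 37 miRNAs lay 2-fold or more away (16 higher and 21 lower), a reference chosen after seeing the data. Against single libraries the count was 32 for ΔmiR-92, 40 for ΔmiR-17,18,92, 45 for the full deletion, 54 for ΔmiR-18, 66 for ΔmiR-19 and 74 for ΔmiR-17. The double deletion was thus nearer to ΔmiR-92, which keeps miR-17 and miR-18, than to either single deletion. No label names a batch, and a difference in handling and one of genotype cannot be told apart with 1 library each. ΔmiR-17,18 was the highest of the 8 libraries for 46 miRNAs (14.4%) and the lowest for 57 (17.9%), 103 in all, where the other libraries ranged from 61 to 106. With plain totals as the scaling the split was 27 and 68, and with TMM 35 and 66.

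The sequences of the miRNAs on which the following values turn are shown for reference, with miR-539-3p named only. miR-367-3p has the seed of the miR-92 family, AUUGCAC, and none of the other sequences here shares the seed of a cluster arm:
miR-367-3p: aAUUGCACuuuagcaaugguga
miR-302c-3p: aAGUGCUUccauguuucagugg
miR-7a-5p: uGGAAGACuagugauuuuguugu
miR-103-3p: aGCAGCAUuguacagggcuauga
miR-455-5p: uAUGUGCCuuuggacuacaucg
miR-450a-5p: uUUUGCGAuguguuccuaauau
miR-323-3p: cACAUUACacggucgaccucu
miR-335-5p: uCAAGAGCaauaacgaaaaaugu
miR-335-3p: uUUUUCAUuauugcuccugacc
miR-191-5p: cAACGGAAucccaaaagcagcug
miR-296-3p: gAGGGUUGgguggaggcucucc
miR-376a-3p: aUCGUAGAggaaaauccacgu

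Arms of the paralog clusters, described above, were left out when ratios and departures were ranked. Among the miRNAs that were higher, the 10 highest ratios so ranked held 2 of the miR-302/367 cluster, which marks pluripotent and early embryonic cells. miR-367-3p measured 2211 nRPM in the double deletion against 285 in wild type, with 489 and 1582 for the miR-17 and the miR-18 deletion, 500.0 for ΔmiR-17,18,92, 718 without the cluster, 162 for ΔmiR-19 and 1891 for ΔmiR-92. ΔmiR-17,18, ΔmiR-92 and ΔmiR-18 were high, the other 5 libraries low, and the ratio to wild type was 7.75-fold (95% counting interval 7.39 to 8.14). miR-302c-3p measured 329 nRPM in the double deletion against 55.8 in wild type, with 203 and 185 for the miR-17 and the miR-18 deletion, 212 for ΔmiR-17,18,92, 388 without the cluster, 287 for ΔmiR-19 and 259 for ΔmiR-92, a ratio of 5.90-fold (95% counting interval 5.28 to 6.60). All 7 mutants lay above wild type, and ΔmiR-17,18 lay among them. The other members of that cluster moved less, with miR-302a-3p at 1.65-fold, miR-302b-3p at 1.15-fold and miR-302d-3p at 1.07-fold.

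The top ratio belonged to miR-539-3p, of the imprinted Dlk1-Dio3 locus on chromosome 12, at 255 nRPM in the double deletion against 31.3 in wild type, with 105 and 55.5 for the miR-17 and the miR-18 deletion, 149 for ΔmiR-17,18,92, 152 without the cluster, 25.1 for ΔmiR-19 and 119.9 for ΔmiR-92. ΔmiR-17,18 was the highest library, and the ratio was 8.15-fold (95% counting interval 7.05 to 9.46). miR-7a-5p, which is enriched in neural and endocrine cells, measured 5013 nRPM in the double deletion against 868 in wild type, with 1523 and 2309 for the miR-17 and the miR-18 deletion, 2029 for ΔmiR-17,18,92, 3421 without the cluster, 1954 for ΔmiR-19 and 3267 for ΔmiR-92, with ΔmiR-17,18 again highest and wild type lowest, at 5.78-fold (95% counting interval 5.62 to 5.94). miR-103-3p, a miRNA from introns of pantothenate kinase genes, was the most abundant of the 10. It measured 29274 nRPM in the double deletion against 9410.3 in wild type, with 9982 and 10658 for the miR-17 and the miR-18 deletion, 13103 for ΔmiR-17,18,92, 30404 without the cluster, 8424 for ΔmiR-19 and 12275 for ΔmiR-92, so that the double deletion and the full deletion formed a high pair and the other 6 libraries a low group. The remaining members of the 10 were miR-675-5p, made from H19, at 3.50-fold, miR-140-5p, a cartilage miRNA, at 3.10-fold, and miR-214-3p of mesenchyme at 2.88-fold. A ratio of 3.07-fold was shared by miR-337-5p and miR-3544-3p, but these lie on opposite strands of the same hairpin and had nearly the same reads, so they cannot be told apart. Just outside the 10 were miR-301a-3p (2.78-fold) and miR-322-5p (2.63-fold). The paralog arms miR-106a-5p (2.90-fold) and miR-106b-5p (2.85-fold), left out of this ranking, lay above both.

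Among the miRNAs that were lower, the lowest ratio was that of miR-455-5p, from an intron of the cartilage collagen gene Col27a1. It measured 84.2 nRPM in the double deletion against 654 in wild type, with 297 and 167 for the miR-17 and the miR-18 deletion, 163 for ΔmiR-17,18,92, 633 without the cluster, 143 for ΔmiR-19 and 95.2 for ΔmiR-92. ΔmiR-17,18 was the lowest library with ΔmiR-92 next, and wild type and the full deletion were the highest pair, giving a ratio of 0.13-fold (95% counting interval 0.12 to 0.14). miR-450a-5p, of the X-linked cluster miR-322~450, measured 233 nRPM in the double deletion against 1724 in wild type, with 877 and 440.3 for the miR-17 and the miR-18 deletion, 232 for ΔmiR-17,18,92, 247 without the cluster, 668 for ΔmiR-19 and 141 for ΔmiR-92, with wild type alone at the top and a ratio of 0.13-fold (95% counting interval 0.13 to 0.14). Its neighbour miR-322-5p was higher in the same library.

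Of the 10 lowest ratios, 4 belong to the Dlk1-Dio3 locus, of which 2 are the same reads listed under both names. miR-323-3p measured 895 nRPM in the double deletion against 3853 in wild type, with 4054 and 3029 for the miR-17 and the miR-18 deletion, 1929 for ΔmiR-17,18,92, 1898 without the cluster, 3062 for ΔmiR-19 and 4923 for ΔmiR-92. ΔmiR-17,18 was the lowest of the 8 libraries, and the ratio was 0.23-fold (95% counting interval 0.23 to 0.24). miR-494-3p was at 173 nRPM against 1053 in wild type and 87.04 in ΔmiR-18, the lowest library. miR-299-3p and miR-299b-5p shared their reads, at 491 nRPM against 2848 in wild type and between 1060.1 and 3256 in the other mutants, so ΔmiR-17,18 was lowest there too. The remaining low ratios were those of miR-293-5p of the embryonic stem cell cluster miR-290~295 (0.21-fold), miR-361-3p (0.22-fold), miR-669c-5p (0.23-fold) and miR-335-3p (0.27-fold). Just outside were miR-429-3p (0.28-fold) and miR-203-3p (0.29-fold), both of epithelium.

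**Figure D3:**
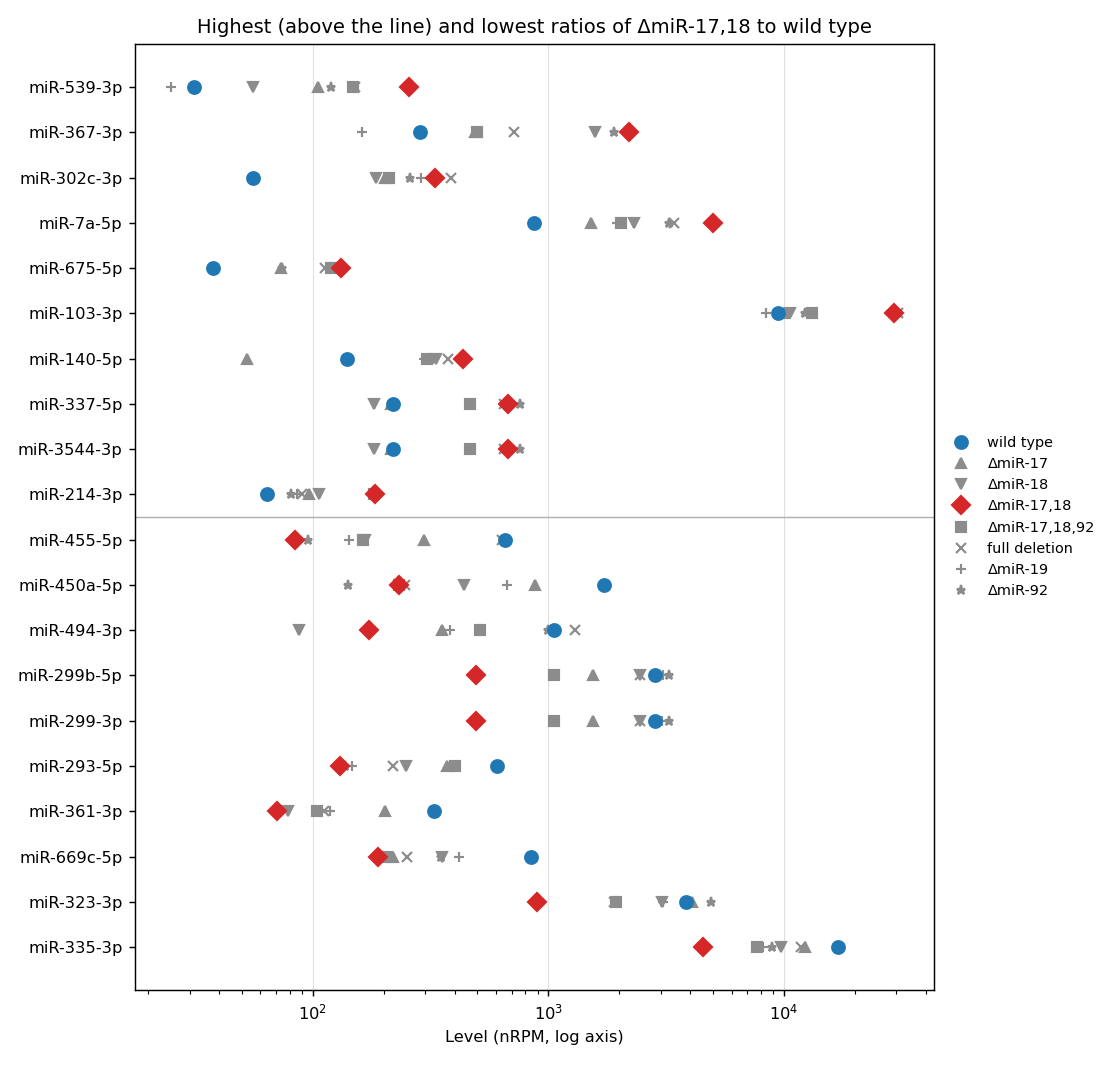
Level (nRPM, log axis) of the 10 miRNAs with the highest and the 10 with the lowest ratio of ΔmiR-17,18 to wild type in the 8 genotype libraries, 1 point a library. Arms of the paralog clusters were left out of the ranking. Wild type (blue) is at the edge of the 8 points for many of them, as is ΔmiR-17,18 (red), and miR-103-3p is high in ΔmiR-17,18 and the full deletion.

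Whether the effects of the single deletions add was asked by setting the log2 ratio of ΔmiR-17,18 against the sum of those of ΔmiR-17 and ΔmiR-18. All 3 ratios share the wild-type library, and the departure holds it once with a positive sign. Of the 319 miRNAs, 90 (28.2%) departed from the sum by 2-fold or more, 42 above it (13.2%) and 48 below it (15%), and 229 (71.8%) were within 2-fold. The median departure was −0.12 with an SD of 1.01, and its median size was 0.56, against 0.53 for the ratio of ΔmiR-17,18 itself. Departures were thus of about the size of the ratios. A departure takes in more libraries than a ratio, and so more of the spread between them, so this likeness does not show whether the effects add. The counting error of a departure had a median SE of 0.037 and was at most 0.12, so that counting error is small beside these sizes, while the spread between embryos of 1 genotype is not known. With TMM scaling the split was 35 above and 61 below, with a median of −0.26.

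Of the 37 miRNAs that were 2-fold or more higher in ΔmiR-17,18, the sum was 2-fold or more higher for 19, under 2-fold for 17 and 2-fold or more lower for 1. Of the 40 that were lower, these counts were 20, 18 and 2. The rows were picked on their ratio, and wild type enters the ratio and the sum with the same sign. Part of this match therefore follows from the shared library, and the counts do not show that the effects add. miR-455-5p and miR-450a-5p were examples where the values met the sum, with log2 ratios of −2.94 and −2.88 and sums of −3.10 and −2.94. miR-7a-5p did so too, with 2.53 beside a sum of 2.22, and so did miR-367-3p with 2.95 beside 3.24. miR-103-3p did not, at 1.64 beside a sum of 0.26, and neither did miR-323-3p, at −2.11 beside −0.27. Wild type lay beyond all the other mutants for miR-455-5p, miR-450a-5p and miR-7a-5p. It lay within their range for miR-367-3p, miR-103-3p and miR-323-3p.

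The 90 departures were also sorted by the ratio of the double deletion itself. Over all 319 miRNAs, 24.1% lay 2-fold or more from wild type, so a ratio under 2-fold is usual and does not set these rows apart. Of the 42 above the sum, 28 had a ratio under 2-fold in ΔmiR-17,18, and the median log2 ratios were −0.64 and −0.62 for the miR-17 and the miR-18 deletion and 0.19 for both together. Of the 48 below, 36 had a ratio under 2-fold, and the medians were 0.56, 0.62 and −0.40. These medians follow in part from how the rows were picked, because all 3 ratios enter the departure.

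The departure highest above the sum was that of miR-191-5p, a broadly expressed miRNA of an intron of Dalrd3. It measured 5754 nRPM in the double deletion against 3971 in wild type, with 3102 and 401 for the miR-17 and the miR-18 deletion, 3515 for ΔmiR-17,18,92, 4681 without the cluster, 4388 for ΔmiR-19 and 4843 for ΔmiR-92. Only ΔmiR-18 was low, and the departure was 4.19 ± 0.022 (counting SE). miR-296-3p, at 3890.4 nRPM in the double deletion against 5902 in wild type, with 852 and 3740.2 for the miR-17 and the miR-18 deletion, 4675 for ΔmiR-17,18,92, 4289 without the cluster, 4193 for ΔmiR-19 and 3674 for ΔmiR-92, was low in ΔmiR-17 alone, with a departure of 2.85 ± 0.018. miR-423-3p was low in ΔmiR-18 (815 nRPM against 3711 in wild type and 3592 in ΔmiR-17,18) and miR-382-5p in ΔmiR-17 (504 nRPM against 3098 and 1443). For miR-423-3p and miR-382-5p too, 1 single deletion was the lowest of the 8 libraries. miR-483-5p, from an intron of Igf2, was different, since ΔmiR-17,18 was its highest library at 246 nRPM against 99.6 in wild type and 63.2 and 60.9 for the 2 single deletions, a departure of 2.65. miR-494-3p (2.56), miR-295-3p (2.03) and miR-3544-3p (1.90) completed the 8, and miR-337-5p (1.89) and miR-151-5p (1.81) were just outside.

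The departure farthest below was that of miR-376a-3p, at 707 nRPM in the double deletion against 1602 in wild type, with 3079 and 2722 for the miR-17 and the miR-18 deletion, 1733 for ΔmiR-17,18,92, 1186 without the cluster, 2988 for ΔmiR-19 and 586 for ΔmiR-92. Both single deletions were above wild type, the double deletion was below it, and the departure was −2.88 ± 0.025. miR-9-5p, a marker of neural progenitors, showed the same order, at 1313 nRPM in the double deletion, 1806 in wild type, and 3686 and 2897 for the miR-17 and the miR-18 deletion. miR-125b-5p was at 897, 1793, 1952 and 4025 nRPM in the same order of libraries. The departures of these 2 were −2.17 and −2.29. The other 5 of the 8 were miR-144-5p of red blood cells (−2.52), miR-135a-5p (−2.44), miR-21-3p (−2.28), miR-379-3p (−2.11) and miR-199b-5p (−2.06), and miR-145-5p (−2.03) and miR-1197-3p (−1.99) were just outside. In 6 of the 8 the ratio of the double deletion itself was under 2-fold, as it was in most of the 319 miRNAs.

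**Figure D4:**
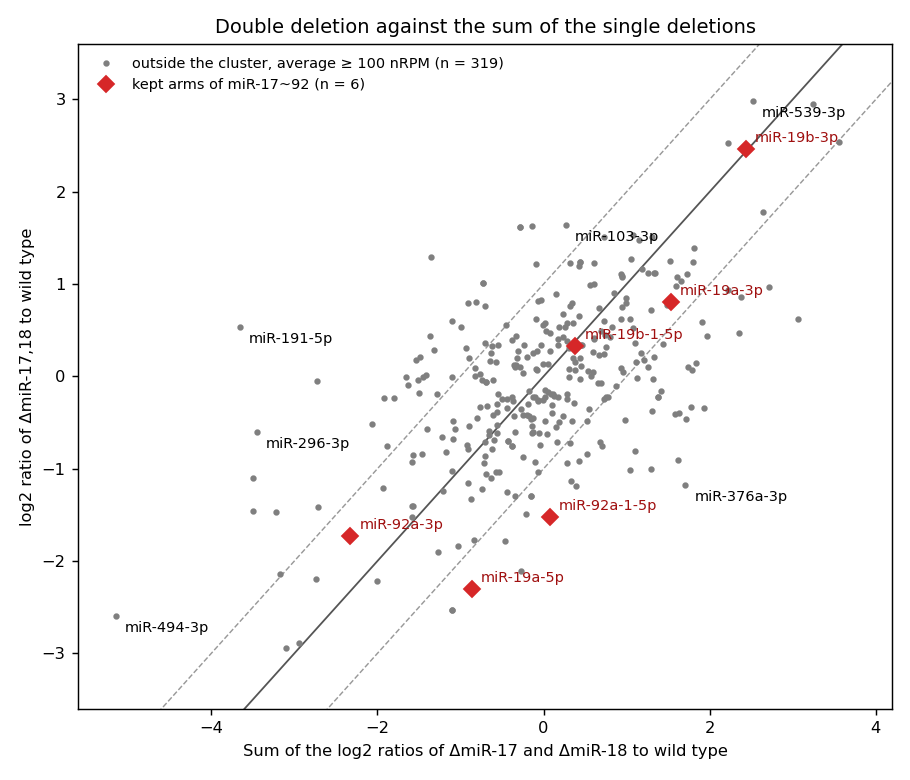
Log2 ratio of ΔmiR-17,18 to wild type (y axis) against the sum of the log2 ratios of ΔmiR-17 and ΔmiR-18 (x axis), for 319 miRNAs outside the cluster (grey) and the 6 kept arms (red). The solid line marks equality and the dashed lines a 2-fold departure, and 229 of the grey points lie between the dashed lines.

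A model over all 8 libraries was used to set effects beside the spread between libraries. It had 1 term for the loss of each of the 4 families and 1 for the joint loss of miR-17 and miR-18, and left 2 residual degrees of freedom. ΔmiR-17 and ΔmiR-18 were each fitted exactly, so the residual spread came from the remaining libraries. Whatever set either of them apart entered the estimate of the joint term but not that spread. limma called 0 of 538 miRNAs outside the cluster (0%) for the joint term, with 21 at an unadjusted p under 0.05 and a lowest Benjamini-Hochberg adjusted p of 0.597. For the combined loss of both families it called 0 of 538 outside the cluster (0%), with 28 at an unadjusted p under 0.05 and a lowest adjusted p of 0.132, and 6 of all 551 (1.09%), which were the 6 deleted arms. Of the kept arms, miR-19b-3p had 1.21 ± 0.48 (SE) for the combined term at a limma adjusted p of 0.699, and miR-92a-3p −0.99 ± 0.37 at 0.697. These estimates average over ΔmiR-17,18, ΔmiR-17,18,92 and the full deletion, and differ from the ratios of the single library. The edgeR quasi-likelihood test on recovered reads also called 0 outside the cluster for both terms, with 22 at an unadjusted p under 0.05 for each.

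With DESeq2, 4 miRNAs outside the cluster passed for each term and are named because their number is small, after their values were seen. For the joint term they were miR-191-5p, miR-376b-5p, miR-376c-5p and miR-877-5p, the lowest DESeq2 adjusted p being 7.475e-05, with 25 at an unadjusted p under 0.05. miR-191-5p was low in ΔmiR-18 alone, at 401 nRPM, and the model fits that library exactly. For the combined loss they were miR-323-3p, miR-423-5p, and miR-299-3p with miR-299b-5p, which share reads, all lower, the lowest DESeq2 adjusted p being 0.004614, with 35 at an unadjusted p under 0.05. limma's adjusted p for miR-191-5p was 0.597 with an estimate of 4.13 ± 0.80 (SE), and for miR-323-3p 0.132 with −1.65 ± 0.35. Leaving out 1 library changed limma's count for the combined loss to 16 without ΔmiR-17,18 itself, 14 without ΔmiR-92, and 1 (miR-741-3p) without ΔmiR-19. For the joint term it was 1 without ΔmiR-17,18 (miR-367-3p) and 2 without ΔmiR-92 (miR-191-5p and miR-376b-5p).

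Arms of 1 hairpin come from 1 transcript, so their ratios can be set side by side. For 69 hairpins outside the cluster both arms averaged 100 nRPM or more, leaving out 5 whose arms share reads with another row. In ΔmiR-17,18 the ratios of the 2 arms differed by 2-fold or more in 34 of the 69 (49.3%), 15 toward the 5p arm and 19 toward the 3p arm. The same count in the other 6 mutants was between 14 and 22, or 20.3% to 31.9%. Of 26 hairpins with an arm 2-fold or more from wild type, 23 had 1 such arm, 1 had both on the same side and 2 had them on opposite sides. Across the 69 hairpins the ratios of the arms had a Spearman rho of −0.21, a description over hairpins that share 2 libraries.

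miR-335, from an intron of the imprinted gene Mest, was 1 of the 2 hairpins with arms on opposite sides. Its 5p arm measured 8433 nRPM in the double deletion against 3506 in wild type, with 5779 and 4425 for the miR-17 and the miR-18 deletion, 6286 for ΔmiR-17,18,92, 7346 without the cluster, 5675 for ΔmiR-19 and 5197 for ΔmiR-92. Its 3p arm measured 4543 nRPM in the double deletion against 16979.8 in wild type, with 12334 and 9703 for the miR-17 and the miR-18 deletion, 7661 for ΔmiR-17,18,92, 11836 without the cluster, 8191 for ΔmiR-19 and 8888 for ΔmiR-92. ΔmiR-17,18 thus had the lowest level of the 3p arm of all 8 libraries, and the 2 arms had log2 ratios of 1.27 and −1.90. The other was miR-872, at 1.01 for the 5p arm and −1.32 for the 3p arm, and its 5p arm lay between 0.93 and 1.07 under the other scalings, on both sides of 2-fold. In miR-302c the 3p arm was higher (2.54) and the 5p arm was at −0.50, in miR-455 the 5p arm was at −2.94 and the 3p arm at −0.24, and in miR-361 the 3p arm was at −2.20 and the 5p arm at 0.16. The 5p level per 3p level of miR-361 was 3.25 in wild type, 16.8 in ΔmiR-17,18 and 5.37 to 20.99 in other mutants. For miR-302c these values were 2.66, 0.32 and 0.24 to 0.89, and for miR-455 3.06, 0.47 and 0.31 to 2.06. For miR-361, miR-302c and miR-455 wild type thus lay apart from all mutants, with ΔmiR-17,18 among them. miR-335 (0.21, 1.86, 0.46 to 0.82) and miR-872 (8.54, 43.4, 11.8 to 18.5) had ΔmiR-17,18 beyond the other mutants. Wild type lay apart from all mutants for miR-335 and miR-872 too, on the opposite side from ΔmiR-17,18. Of the paralogs, miR-106b had 1.51 for its 5p arm and −0.07 for its 3p arm.

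**Figure D5:**
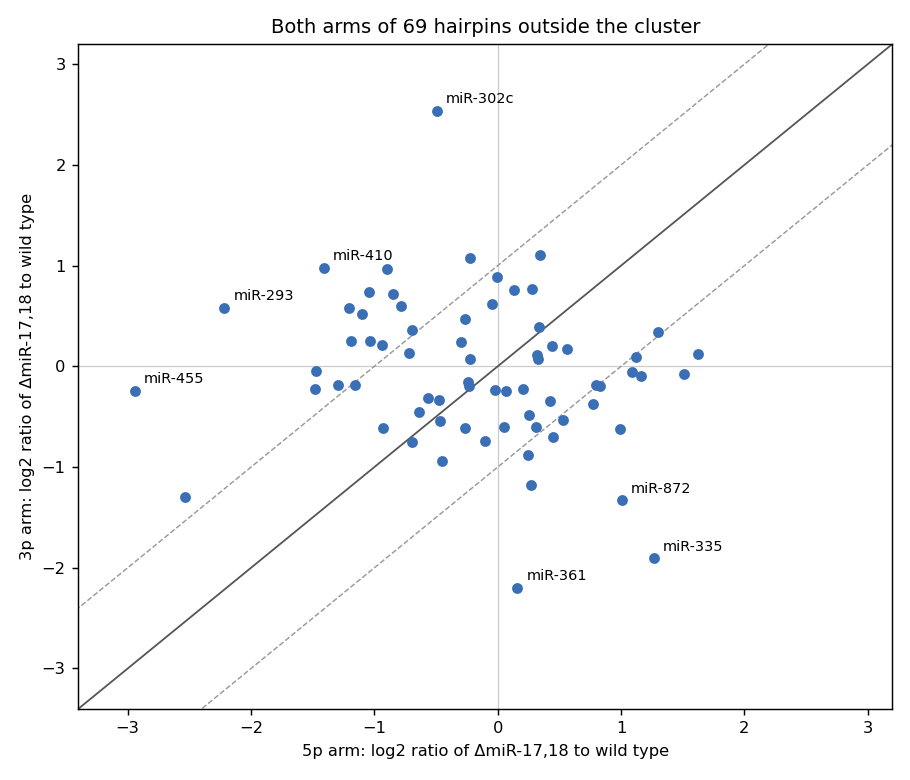
Log2 ratio of ΔmiR-17,18 to wild type for the 3p arm (y axis) against the 5p arm (x axis) of 69 hairpins outside the cluster. The solid line marks equal ratios and the dashed lines a 2-fold difference between arms, outside which lie 34 hairpins.

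Lists of marker miRNAs describe the tissue that each library held, with fewer cells of a type and less RNA per cell not separable in bulk samples. The counts below are of list members that averaged 100 nRPM or more, and their medians stand beside a median log2 ratio of −0.03 and a median departure of −0.12 over all 319 miRNAs. The share called over all 319 was 24.1%, and most lists are too short for a share. The heart had been dissected off, yet its defining markers were detected in all 8 libraries, and of all 7 heart and skeletal muscle markers, whatever their level, 5 had a higher value in ΔmiR-17,18 than in wild type. miR-208a-3p, from an intron of a cardiac myosin gene, measured 176 nRPM in the double deletion against 6.27 in wild type, with 24.7 and 49.9 for the miR-17 and the miR-18 deletion, 159 for ΔmiR-17,18,92, 32.4 without the cluster, 28.4 for ΔmiR-19 and 51.7 for ΔmiR-92. The level was highest in ΔmiR-17,18 and ΔmiR-17,18,92 and lowest in wild type. miR-499-5p was at 60.3 nRPM against 10.3, and miR-133a-3p at 752 against 427. The other two went the opposite way, with miR-208b-3p, from a second cardiac myosin gene, at 20.5 nRPM against 24.6 and miR-206-3p of skeletal muscle at 96.5 against 108. The 7 heart and skeletal muscle markers summed to 6128 nRPM in ΔmiR-17,18, against 3067 nRPM in wild type and between 2227 and 5226 nRPM in the other 6 mutants, and none was at 0. miR-1a-3p, the main one, measured 5005 nRPM in the double deletion against 2485 in wild type, with 1531 and 2431 for the miR-17 and the miR-18 deletion, 3662 for ΔmiR-17,18,92, 2862 without the cluster, 2211 for ΔmiR-19 and 4622 for ΔmiR-92, and of the 3 counted markers it alone reached 2-fold, with a log2 ratio of 1.01 that lay between 0.93 and 1.07 under the other scalings. The part of remaining heart tissue in other differences was not tested.

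The counted markers of blood, vessel and nerve were within 2-fold of wild type, with 0 beyond it in the lists of red blood cells (4), white blood cells (2), endothelium (2) and neural tissue (4). Those of red blood cells summed to 1215 nRPM against 1633 nRPM in wild type, led by miR-486-5p at 705 and 1187 nRPM and miR-451 at 289 and 261 nRPM. Of the white blood cell markers, miR-142-3p was at 253 nRPM against 328 and miR-142-5p at 501 against 292. miR-126-3p of endothelium was at 14901 nRPM, above the other 7 libraries, of which the highest was the full deletion at 12180.0 nRPM, and its partner miR-126-5p was at 2657 nRPM against 2673 in wild type. The neural markers miR-9-5p and miR-124-3p were at log2 ratios of −0.46 and −0.24. Among markers of lower average level, 2 were further from wild type. The neural miR-219-5p was at 146 nRPM against 60.9, which is 2.40-fold (95% counting interval 2.14 to 2.70), and the lymphocyte miR-150-5p, with few reads, was at 3.21 nRPM against 1.41, which is 2.27-fold (95% counting interval 1.04 to 5.48). The median departure of the red blood cell list was −1.72 and that of the neural list −1.35, beside median sums of the single deletions of 1.73 and 0.999.

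Of 3 sensory organ markers, all from 1 cluster, 1 was 2-fold lower. miR-182-5p measured 4438 nRPM in the double deletion against 9092 in wild type, with 8388 and 6769 for the miR-17 and the miR-18 deletion, 6575 for ΔmiR-17,18,92, 6211 without the cluster, 14402 for ΔmiR-19 and 6287 for ΔmiR-92, so that ΔmiR-17,18 was lowest, and its log2 ratio of −1.03 lay between −1.11 and −0.97 under the other scalings, while miR-183-5p was at −0.04 (log2). Of 5 epithelial markers, 2 were lower, miR-429-3p (−1.83) and miR-141-3p (−1.13), while miR-200b-3p and miR-200a-3p were within 2-fold, at −0.33 and 0.21. Both lists summed below the other 6 mutants, the sensory list to 11422 nRPM (others 13254 to 24281) and the epithelial list to 7745 nRPM (others 8580 to 12538). Of 7 mesenchyme markers, miR-140-5p and miR-214-3p were higher and miR-199a-5p was lower (−1.30), while the most abundant, miR-143-3p and miR-140-3p, were at −0.26 and 0.12. The liver marker miR-122-5p was at 167 nRPM against 69.4.

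Of 8 pluripotent cell miRNAs counted, 2 were higher (miR-367-3p and miR-302c-3p) and miR-295-3p was lower, at −1.46. The list summed to 9044 nRPM against 6135 nRPM in wild type and 5440 to 8381 nRPM in the other mutants, of which miR-302b-3p and miR-367-3p made up the most. miRNAs of the Hox clusters, which mark position along the body axis, held no member beyond 2-fold among 4. miR-10b-5p was at 0.14 and miR-10a-5p at −0.22. The 6 counted members of the let-7 family, which rise as cells mature, were also all within 2-fold, with let-7a-5p at −0.23 and let-7f-5p at 0.37.

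Of 4 counted members of the miR-15/16 family, which restrains the cell cycle, 2 were 2-fold or more higher. miR-15a-5p measured 1118 nRPM in the double deletion against 481 in wild type, with 374 and 583 for the miR-17 and the miR-18 deletion, 887 for ΔmiR-17,18,92, 889 without the cluster, 474 for ΔmiR-19 and 724 for ΔmiR-92, with ΔmiR-17,18 the highest. miR-322-5p was the other, while miR-16-5p and miR-15b-5p were at 0.53 and 0.32, and the family summed to 11525 nRPM against 7176 nRPM in wild type and 6767 to 10254 nRPM in the other mutants. The miR-34 family, which p53 induces, held 0 of 2 beyond 2-fold, with miR-34c-5p at 0.62 and miR-34a-5p at −0.71. In the X-linked cluster miR-322~450, 1 of 6 was higher and 1 lower, and miR-503-5p and miR-351-5p were at 0.49 and −0.64.

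The maternal allele of the Dlk1-Dio3 locus makes a long series of miRNAs from 1 transcript, and 26 members of a chosen list were counted. That list does not hold every arm of the locus. Several arms named above are not in it, among them miR-539-3p, miR-494-3p, miR-299-3p and miR-379-3p. In ΔmiR-17,18, 2 of the 26 were higher and 7 lower, 8 lay below all other 6 mutants, and the median log2 ratio was −0.31. Over all 319 miRNAs the shares were 11.6% higher, 12.5% lower and 18.5% below the other 6 mutants. The 28 listed members measured summed to 99959 nRPM, against 125460 nRPM in wild type and 109581 to 140008 nRPM in the other mutants. The most abundant, miR-127-3p, was at 0.10 and miR-541-5p at −0.22, while 2 of the lower members were miR-543-3p (1642 nRPM against 4717) and miR-376a-3p (707 against 1602).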

How the data were processed

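The deposited values are normalised signal per mature miRNA and library, made by the authors on build mm9 with featureCounts, Subread 1.4.2, STAR 2.2.0 and SAMtools 0.1.19, per the submitters' processing notes; parameters are not given in the sources used here. Each deposited value was a whole multiple of 1 read's worth (100% within 0.001 reads), and the authors' factors equalled median-ratio size factors. Values were multiplied by 0.1159 to give nRPM. Rows of 1 accession within 10% of each other were merged (1046 to 986), and 8 accessions kept more than 1 row. The miR-92a-3p row counted with the cluster is the higher one. Before logs were taken 1 nRPM was added, so log2 fold changes of low miRNAs are understated. Counts used miRNAs averaging 100 nRPM or more, models 10 nRPM or more.

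Count intervals are exact (Clopper-Pearson, 95%) and cover counting error only. limma 3.58.1 (trend) was the test, with Benjamini-Hochberg adjustment at 0.05, and edgeR 4.0.16 and DESeq2 1.42.0 (R 4.3.3) on recovered reads were alternatives; the model was tested on simulated data. The miRNAs named were every arm of the 3 clusters, 10 ratios from either end, 8 departures from either end (average of 100 nRPM or more, 20 reads in either library), up to 5 limma calls per direction, and the 2 most abundant of each of 21 lists. Arms of those 3 clusters did not enter the ranking of ratios and departures. The members and lists were chosen with earlier results of these data known. Mature sequences from RefSeq (GRCm38.p6) matched 769 of 986 rows.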

Additional observations from a re-analysis of the deposited data

How the results depend on the processing

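The 77 miRNAs 2-fold or more from wild type became 126 with an average of 10 nRPM or more as the filter, 29 with 1000 nRPM and 264 with none (of 538, 133 and 973 miRNAs), 26 with a log2 size of 1.5, and 37 with the mean of 3 libraries as reference. The 90 departures from the sum became 164, 33 and 345 under those filters and 50 at a log2 size of 1.5, and the 103 miRNAs highest or lowest in ΔmiR-17,18 became 155, 41 and 249. The share called stayed between 21.8% and 27.1% for the ratio and between 24.8% and 35.5% for the departure under the filters, so the number of miRNAs counted moved these counts. Scaling by plain totals, totals outside the cluster, TMM or 8-library median ratios kept each of these counts within 1.5 times, and TMM moved the median departure from −0.12 to −0.26. DESeq2 called 4 miRNAs for the joint term and 4 for the combined loss, where limma called 0. Leaving out 1 library gave between 0 and 2 calls for the joint term and between 0 and 16 for the combined loss, and without ΔmiR-17 or ΔmiR-18 the terms could not be fitted. With ΔmiR-17,18 left out, the joint loss rests on 2 libraries that lack miR-92 as well. No paired analysis was possible because each genotype had 1 library. Among the ratios and departures of all listed or named miRNAs, some crossed 2-fold under at least 1 setting. They were the ratios of miR-125b-5p, miR-199b-5p, miR-1a-3p, miR-182-5p, miR-872-5p, miR-32-5p, miR-144-3p, miR-409-3p, miR-410-3p and the low miR-133b-3p, miR-150-5p and let-7b-5p. The departures were those of miR-17-3p, miR-106a-3p, miR-18b-5p, miR-93-3p, miR-302c-3p, miR-675-5p, miR-669c-5p, miR-199a-5p, let-7a-5p, miR-34a-5p, miR-34b-5p, miR-322-3p, miR-450b-5p and miR-369-3p and of the low miR-208b-3p, miR-223-3p, miR-150-5p, miR-741-3p and let-7b-5p. Depth limits the deleted arms and low partner arms, while the lack of a second library per genotype limits every comparison.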

Other observations

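The base composition of the miRNAs was set beside the ratios for the 250 of 319 miRNAs outside the cluster that had a mature sequence in RefSeq. Across these miRNAs, which share the libraries and their depth, the GC share of the mature sequence had a Spearman rho of −0.25 with the log2 ratio of ΔmiR-17, −0.30 with that of ΔmiR-18 and −0.01 with that of ΔmiR-17,18. For the departure of ΔmiR-17,18 from the sum of the single deletions rho was 0.31. The 46 miRNAs with a GC share under 40% had median log2 ratios of 0.41, 0.41 and 0.07 in these libraries, taken in that order, and a median departure of −0.48. For the 100 miRNAs with a share of 50% or more these medians were −0.05, −0.25, −0.01 and 0.26. miR-296-3p, with a high departure (2.85), has a GC share of 68.2%, and miR-144-5p, with a low one (−2.52), of 30.4%. Others went the opposite way, such as miR-295-3p (2.03) with 34.8% and miR-125b-5p (−2.29) with 50%. miR-191-5p, with the highest departure, has 52.2%. The part of base composition in the departures was not tested.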
